A study of Mus musculus with 15 samples.

Results

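Primary myoblasts, the muscle precursor cells that fuse into fibres, were treated with small interfering RNA (siRNA) and differentiated for 1 day, and the mean of 2 knockdowns was compared with control siRNA. All 15 libraries of the series entered this comparison. The 10 knockdown libraries were 5 with siRNA against Lmod1 (siLmod1) and 5 with siRNA against Sirt1 (siSirt1), and the 5 libraries of siCtrl formed the other side. The cells were wild type (WT) C57BL/6J myoblasts throughout, and every group had received siRNA with the lipid RNAiMax and the same differentiation. The replicate numbers 1, 2, 3, 4 and 7 occur in each group and are taken as the 5 primary lines that the design names, so that each line gives 1 library per group. Nothing in the labels says how many transfections stand behind a library, and the p-values measure the spread over these 5 lines. The series asks which early transcripts respond to loss of either protein, and the average of the knockdowns describes the part of that response in which Lmod1 and Sirt1 siRNA weigh equally.

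Lmod1 encodes leiomodin 1, a tropomodulin-related protein that nucleates actin filaments and is best known from smooth muscle. Sirt1 encodes sirtuin 1, an NAD-dependent deacetylase of histones, transcription factors and metabolic regulators. In differentiating myoblasts, cells leave the cycle, switch on myogenin and the fusion proteins, and then build contractile filaments, calcium stores and caveolae. Actin and contractile genes are under serum response factor (SRF) and its actin-sensing partners of the MRTF family, and under the myogenic factors that bind E-boxes.

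The libraries held 21004908 to 33601761 counts, and levels are given as CPM, library-size scaled counts adjusted between libraries by edgeR's TMM factors. Line 4 stood apart: the leading component of the log2 CPM, 42.9% of their variance, set it off from the other 4 lines in all 3 groups. Myod1, Myf5, Pax7, Cdh15, Itga7, Des and Myog, markers of myoblasts, together summed to 5291 to 10563 CPM, against 4.26 to 17.0 CPM for 15 immune cell markers, of which Ptprc was at 0 in 12 libraries. The smooth muscle and pericyte markers other than Des and Lmod1 summed to 222 to 728 CPM in siCtrl, 121 to 473 with siLmod1 and 186 to 322 with siSirt1. Their defining members Myh11 and Cnn1 stayed at or below 1.56 and 0.817 CPM in all libraries, while Mustn1 alone reached 637 CPM. The mitochondrial share of the counts was 2.33% ± 0.296 for siCtrl (SD, n = 5), against 2.80% ± 0.425 for siLmod1 and 2.45% ± 0.394 for siSirt1. The knockdowns lay 0.300 percentage points above siCtrl (exact two-sided permutation within lines, p = 0.0905, smallest possible 0.00412).

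The targeted genes were checked first, and each fell in its own knockdown. Lmod1 (chr1:135324807-135368065, plus strand, mm10) stood at 23.2, 44.3, 35.0, 6.21 and 43.4 CPM in the siCtrl libraries of lines 1, 2, 3, 4 and 7. It stood at 2.51, 5.46, 3.88, 1.41 and 4.24 CPM in siLmod1, in the same order of lines, and at 8.29, 32.6, 24.5, 3.45 and 14.8 CPM in siSirt1. All 10 knockdown libraries lay below the siCtrl library of their line, although the siSirt1 and siCtrl ranges overlapped. Its log2 fold change was -3.04 ± 0.22 (SE) in siLmod1 (adjusted p = 1.5e-05) and -0.95 ± 0.20 in siSirt1 (adjusted p = 0.0069). Adjusted p-values are from edgeR's quasi-likelihood test with the line as a block and Benjamini-Hochberg adjustment over all genes tested. The average of the knockdowns was -1.99 ± 0.17 (adjusted p = 8.4e-05), and an exact permutation of the siCtrl label within lines gave a difference of -1.86 in mean log2(CPM + 0.5) (two-sided p = 0.0123).

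Sirt1 (chr10:63319005-63381704, minus strand) was not shared. It stood at 27.4, 17.9, 21.5, 28.5 and 36.2 CPM in siCtrl, at 39.5, 28.0, 32.5, 37.7 and 54.8 CPM in siLmod1, and at 4.59, 3.49, 3.49, 10.7 and 9.23 CPM in siSirt1. Every siLmod1 library lay above the siCtrl library of its line and every siSirt1 library lay below it. The log2 fold changes were 0.56 ± 0.17 in siLmod1 (adjusted p = 0.054) and -2.14 ± 0.18 in siSirt1 (adjusted p = 2.4e-05). Their average of -0.79 ± 0.14 passed the test (adjusted p = 0.0072), so a called average can rest on 1 knockdown. The exact permutation gave -0.769 for Sirt1 (two-sided p = 0.325).

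In the average of the knockdowns, 1227 of 15716 genes passed the test (7.81%), of which 489 rose (3.11%) and 738 fell (4.7%). The changes were small, with a median size of 0.44 on the log2 scale over the called genes, and 101 genes moved by more than 1. An unadjusted p under 0.05 was reached by 3717 genes (23.7%). For comparison, 1427 genes (9.08%) were called in siLmod1 against siCtrl and 2530 (16.1%) in siSirt1 against siCtrl. All 3 of these contrasts use the same 5 siCtrl libraries, so a departure of the siCtrl libraries and a change common to both knockdowns cannot be told apart. With library totals in place of TMM the split turned, to 965 higher and 480 lower (66.8% higher against 39.9%), and the median over all genes moved from -0.0018 to 0.077. Abundant genes gave most of the calls: 1125 of 10298 genes at 5 CPM or more (10.9%) against 102 of 5418 below it (1.88%).

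The count rests on pairing by line and on each control library. Without the line as a block, 13 genes were called (0.0827%), 2 higher and 11 lower, and 1109 (7.06%) had an unadjusted p under 0.05. With the knockdowns treated as 1 level of 10 libraries, so that their differences count as error, 173 genes (1.1%) were called, all of them among the 1227. Leaving out the siCtrl library of line 1, 2, 3, 4 or 7 left 495, 724, 788, 678 or 525 genes, and leaving out all libraries of line 1, 2, 3, 4 or 7 left 522, 708, 651, 864 or 750. The siSirt1 library of line 1 was the least clearly tied to its line, and 1332 genes were called without it.

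The direct contrast of siSirt1 with siLmod1, from the same fit of 15 libraries, called 4210 genes (26.8%), and 3766 to 4076 with 1 siCtrl library left out. Among the 489 genes that rose on average, 160 (32.7%) also differed between the knockdowns, and among the 738 that fell, 433 (58.7%) did. The 95% interval of that difference lay within 0.5 log2 units of 0 for 276 of the genes that rose and 222 of those that fell, against 5578 of all 15716 (35.5%). A called difference was thus more frequent among the genes that fell, in shares that were not tested against each other. In 325 of the genes that rose and 345 of those that fell, all 10 knockdown libraries lay on the called side of the siCtrl library of their line. Over all genes tested, 543 (3.46%) lay wholly above and 523 (3.33%) wholly below, with both knockdown libraries of a line read against 1 siCtrl library.

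**Figure D1:**
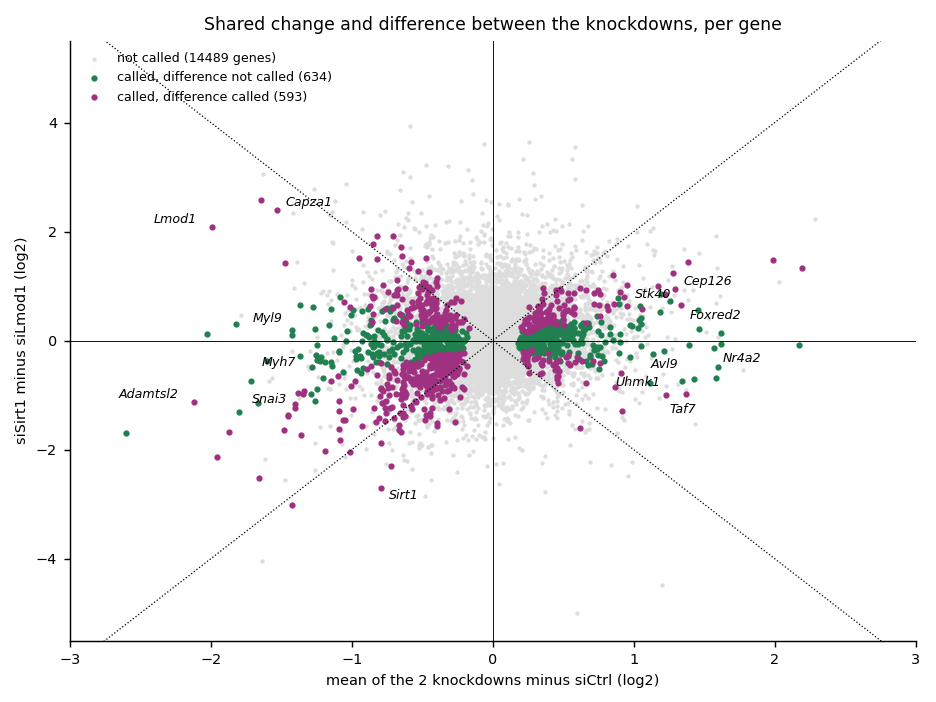
Each point is 1 of 15716 genes, with the mean log2 change of siLmod1 and siSirt1 from siCtrl on the x axis and siSirt1 minus siLmod1 (log2) on the y axis. Green points are the 634 called genes whose difference was not called, purple the 593 whose difference was called, grey the genes not called, and on the dotted lines 1 knockdown equals siCtrl. Avl9 and Myl9 lie near 0 on the y axis, while Capza1 lies at 2.40 and Sirt1 at -2.70 on it.

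Genes of several kinds fell by like amounts in both knockdowns. Csdc2 (chr15:81936759-81950941, plus strand), which encodes a cold shock domain RNA-binding protein, stood at 62.6, 106, 96.0, 19.9 and 63.5 CPM in siCtrl. It stood at 24.3, 48.9, 43.2, 8.77 and 32.8 CPM in siLmod1 and at 23.1, 45.9, 57.0, 11.3 and 25.1 CPM in siSirt1. Line 4 was low in every group, and within each line the 2 knockdown libraries lay near each other and below siCtrl. The average log2 fold change was -1.13 ± 0.09 (adjusted p = 8.4e-05), 45.8% of the siCtrl level, with -1.15 in siLmod1 and -1.10 in siSirt1. The difference between the knockdowns was 0.05 with a 95% interval of -0.20 to 0.30.

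Myl9 (chr2:156775420-156781658, plus strand) encodes the regulatory light chain of smooth muscle and non-muscle myosin. It stood at 85.0, 13.1, 45.9, 37.3 and 147 CPM in siCtrl, at 26.2, 6.40, 22.4, 9.87 and 36.8 CPM in siLmod1, and at 26.6, 6.19, 16.1, 18.3 and 58.1 CPM in siSirt1. The lines differed by more than the groups, and in each line both knockdowns were below siCtrl. Myl9 fell to 37.3% of siCtrl, a log2 fold change of -1.42 ± 0.14 (adjusted p = 0.00031), with -1.53 in siLmod1 and -1.32 in siSirt1. The interval of the difference ran from -0.18 to 0.58.

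Myh7 (chr14:54970684-54994626, minus strand), the slow and cardiac myosin heavy chain, stood at 52.9, 549, 73.1, 13.8 and 376 CPM in siCtrl. It stood at 22.3, 313, 49.3, 3.98 and 141 CPM in siLmod1 and at 24.0, 126, 41.0, 5.89 and 123 CPM in siSirt1. Lines 2 and 7 carried most of the transcript, and all 5 lines fell in both knockdowns. The average was -1.25 ± 0.17 (adjusted p = 0.0015). Reads of the antisense transcript Mhrt, which overlaps Myh7, and of near-identical stretches of other myosin genes cannot be told apart from it in an unstranded library.

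Abcc9, the regulatory subunit of muscle ATP-sensitive potassium channels and a pericyte marker, stood at 57.1, 23.4, 54.1, 3.80 and 22.6 CPM in siCtrl. It stood at 26.1, 10.7, 26.6, 1.41 and 9.09 CPM in siLmod1 and at 19.6, 14.6, 33.6, 0.872 and 6.03 CPM in siSirt1. Its average was -1.25 ± 0.16 (adjusted p = 0.00095), and the interval of the difference ran from -0.50 to 0.33. Abcc9 and Lmod1 are 2 of 3 smooth muscle and pericyte markers that fell, of 11 tested, with a list median of -0.58. Lmod1 is itself a targeted gene, so its fall in siLmod1 came with the design, and the median includes it. Abcc9 was named because it fell. The third, Mcam, fell by 0.58 (adjusted p = 0.031). The partner channel gene Kcnj8 was at 0 in 12 libraries, Rgs5 reached 7.14 CPM at most, and the part of such cells in these results was not tested. Fewer cells of a type and less RNA per cell cannot be told apart in bulk RNA.

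Other genes that fell alike were Syt7, Stard10 and Sulf2. Syt7, a calcium sensor of vesicle and lysosome fusion, stood at 4.70 to 17.4 CPM in siCtrl, 1.89 to 9.97 with siLmod1 and 1.43 to 9.03 with siSirt1, an average of -1.04 ± 0.14 with a difference of -0.01 (interval -0.38 to 0.37). Stard10, a phospholipid transfer protein, was at 7.10 to 12.2 CPM in 4 siCtrl lines and at 108 in line 4, and it fell by 1.09 on average (SE 0.14), with all 10 knockdown libraries below their siCtrl. Sulf2, an extracellular sulfatase that edits heparan sulphate, stood at 221, 108, 114, 360 and 271 CPM in siCtrl, against 48.9 to 203 and 37.5 to 158 CPM in siLmod1 and siSirt1 (average -1.14 ± 0.13, adjusted p = 0.00051). Shisal1 fell by 1.37 (adjusted p = 0.014), a call that was lost in the fit without line 3. Best1, a calcium-activated anion channel, was at -1.22 ± 0.34 (adjusted p = 0.046), and 18 of 29 other settings lost this call. Antisense or neighbouring gene models overlap Abcc9, Stard10, Sulf2 and Sirt1, and their reads cannot be told apart.

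Avl9, Uhmk1 and Nr4a2 rose in both knockdowns without a called difference. Avl9 (chr6:56714899-56761912, plus strand), a gene of the late secretory pathway, stood at 23.3, 22.0, 25.1, 14.3 and 31.0 CPM in siCtrl. It stood at 59.8, 41.3, 42.5, 37.1 and 69.5 CPM in siLmod1 and at 49.1, 32.4, 40.4, 40.6 and 72.0 CPM in siSirt1. The lowest knockdown library lay above the highest siCtrl library, so the groups did not overlap even across lines. Avl9 rose 2.08-fold on average (log2 1.05 ± 0.11, adjusted p = 0.00038), with 1.10 in siLmod1 and 1.00 in siSirt1 and an interval of the difference from -0.36 to 0.16.

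Uhmk1 (chr1:170193420-170215397, minus strand), a kinase known to phosphorylate the cell cycle inhibitor p27, stood at 96.9, 64.0, 84.7, 142 and 84.2 CPM in siCtrl. It stood at 242.8, 132, 146, 297 and 227 CPM in siLmod1 and at 188, 100.2, 108, 251 and 215 CPM in siSirt1. Every line rose in both knockdowns, and only line 4 of siCtrl reached into the knockdown range. The average was 0.97 ± 0.10 (adjusted p = 0.00035). An antisense transcript overlaps the locus and its reads cannot be told apart. The siSirt1 library lay below the siLmod1 library in each line, with a difference of -0.30 (interval -0.53 to -0.06, adjusted p = 0.065).

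Nr4a2, an orphan nuclear receptor and early response gene, was low, at 1.14 to 4.48 CPM in siCtrl, 1.97 to 16.1 with siLmod1 and 4.68 to 7.01 with siSirt1. It rose in all 10 libraries, by 1.57 ± 0.28 on the log2 scale (adjusted p = 0.0066), with 1.63 in siLmod1 and 1.50 in siSirt1. S100a1, a calcium-binding protein of muscle, stood at 8.98, 4.91, 11.4, 6.18 and 9.27 CPM in siCtrl and rose to 8.24 to 20.9 CPM in siLmod1 and 10.01 to 23.7 CPM in siSirt1 (average 0.90 ± 0.15, adjusted p = 0.004). Car3, the carbonic anhydrase of slow muscle, ranged from 10.4 to 58.8 CPM in siCtrl and rose by 0.98 ± 0.18. Car3 and Myh7 are both abundant in slow fibres and moved in opposite directions here. The transcription factor gene Maf rose by 0.83 ± 0.18 (adjusted p = 0.014). This call was lost without the siCtrl library of line 1 or of line 2, and an antisense transcript overlaps the locus. Unc13c, of the vesicle priming family, was at 1.03 ± 0.28 (adjusted p = 0.046), a call that 18 of 29 other settings lost.

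**Figure D2:**
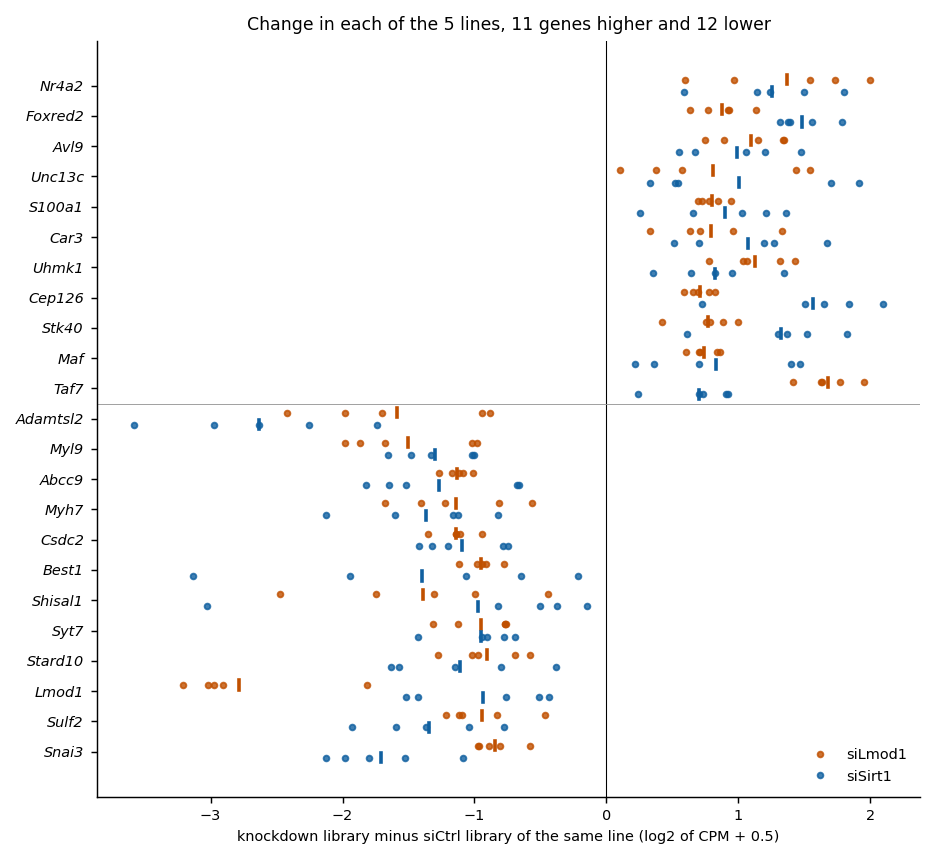
Each point is 1 knockdown library minus the siCtrl library of its line, on the log2(CPM + 0.5) scale (x axis), for 11 genes that rose and 12 that fell, chosen by the naming rule. Orange is siLmod1, blue is siSirt1, and vertical bars are means over the 5 lines. All 10 points of each gene lie on 1 side of 0, which the rule required, and the colours separate for Lmod1 and Taf7 and overlap for Csdc2 and Syt7.

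Levels were compared between genes per length, in TPM (library-scaled transcript abundance), over the named genes only. Mean TPM in siCtrl was 175 ± 140 for Myl9, 112 ± 51.4 for Sulf2, 74.8 ± 81.0 for Myh7 and 46.7 ± 23.2 for Csdc2 (SD, n = 5). It was 36.5 ± 13.8 for S100a1, 35.4 ± 9.59 for Uhmk1, 8.32 ± 2.45 for Avl9, 1.83 ± 1.00 for Nr4a2 and 1.40 ± 0.63 for Foxred2.

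A small set of genes separated knockdown and control libraries without reference to the line. In 22 of 15716 genes (0.14%) the lowest of the 10 knockdown libraries lay above the highest siCtrl library, and in 11 (0.07%) the highest lay below the lowest siCtrl library. Of these, 19 and 11 were called. They were singled out after their values were seen. Mcur1, a regulator of the mitochondrial calcium uniporter, stood at 44.1, 36.1, 38.1, 49.7 and 40.7 CPM in siCtrl, at 20.4 to 23.3 CPM in siLmod1 and at 21.4 to 24.8 CPM in siSirt1. Both knockdowns thus sat in a narrow band below all controls, and Mcur1 fell to 54.4% of siCtrl (log2 -0.88 ± 0.07, adjusted p = 8.4e-05), with a difference of 0.07 between the knockdowns (interval -0.12 to 0.27). It was also called without the line as a block, which such a separation favours.

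Gng5, a G protein gamma subunit, stood at 78.1 to 94.8 CPM in siCtrl, 50.7 to 64.4 with siLmod1 and 44.5 to 67.1 with siSirt1, an average of -0.62 ± 0.07. Tmem183a stood at 160 to 207, 109 to 147 and 106 to 138 CPM in the same order, with -0.55 in each knockdown. Ttyh2, a membrane protein of the tweety family, fell by 0.57 ± 0.06 on average, Ptp4a2, a small membrane-bound phosphatase, by 0.41 ± 0.06, and Efr3a, a plasma membrane scaffold of lipid kinases, by 0.35 ± 0.05. Among those that rose, Atxn7l3b stood at 99.8 to 147 CPM in siCtrl, 173 to 245 with siLmod1 and 149 to 285 with siSirt1 (average 0.76 ± 0.09). Jmy, an actin nucleation factor known also as a p53 cofactor, stood at 44.6 to 58.0, 65.9 to 85.8 and 65.1 to 81.5 CPM and rose by 0.49 ± 0.07. Adipor1, an adiponectin receptor, rose by 0.24 ± 0.06 on average, from 229 to 253 CPM in siCtrl to 256 to 318 in siLmod1 and 253 to 284 in siSirt1. Separation across lines favours genes that vary little between lines, so their contrast in this with Myl9 or Myh7 follows from how they were picked.

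Among the 13 genes called without the line as a block, several owed their average mostly to 1 knockdown. They were chosen after their values were seen. Capza1, the alpha subunit of the actin filament capping protein, stood at 82.5 to 126 CPM in siCtrl, 12.4 to 16.5 with siLmod1 and 59.5 to 94.2 with siSirt1. It fell in all 10 libraries, by 2.73 ± 0.09 in siLmod1 and 0.33 ± 0.08 in siSirt1 (adjusted p = 0.016), and the difference of 2.40 had an interval of 2.21 to 2.59. The siRNA sequences were not used here, and whether either siRNA matches Capza1 or another gene directly was not tested. Erh was at -1.71 and -0.19, and Alg10b at -1.26 and 0.07, in siLmod1 and siSirt1. Fam98a, at -0.21 and -1.35, and Klhl20, at 0.05 and -1.19, had the larger change in siSirt1, as did the chaperone gene Dnaja1 at -0.19 and -0.86, and the difference between the knockdowns was called for each of these genes. Stk40, Impact, Polr2m and Klc4 were called in each knockdown, Gng5 and Mcur1 are given above, and the last was the predicted gene Gm3608.

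Several genes were moved by both knockdowns but to different extents. Adamtsl2, a secreted protein that binds matrix microfibrils, stood at 77.9, 131, 57.7, 28.3 and 51.8 CPM in siCtrl. It stood at 19.4, 70.6, 17.5, 4.86 and 26.7 CPM in siLmod1 and at 6.06, 27.0, 6.90, 8.12 and 7.94 CPM in siSirt1. Every line fell, and all but line 4 fell further in siSirt1. The log2 fold changes were -1.55 ± 0.29 and -2.68 ± 0.31, with a difference of -1.12 (interval -1.78 to -0.46, adjusted p = 0.017). Snai3, a Snail-family repressor gene, fell from 5.10 to 16.1 CPM in siCtrl to 3.24 to 8.46 and 1.11 to 5.46 CPM, by 0.90 ± 0.18 in siLmod1 and 1.85 ± 0.19 in siSirt1. The lipase inhibitor gene Angptl4, at 0 to 0.909 CPM in siCtrl, stood at 0.0696 to 2.85 and 0.861 to 5.73 CPM in the knockdowns, log2 changes of 1.53 and 2.86.

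Foxred2, a flavoprotein of endoplasmic reticulum (ER) protein disposal, stood at 2.80, 2.13, 2.00, 1.85 and 4.72 CPM in siCtrl. It stood at 5.76, 4.49, 3.76, 4.65 and 7.59 CPM in siLmod1 and at 9.26, 6.40, 8.09, 5.58 and 12.5 CPM in siSirt1. The level rose in each line from siCtrl to siLmod1 and again to siSirt1, with log2 changes of 1.00 and 1.66 and a difference of 0.66 (interval 0.34 to 0.97, adjusted p = 0.0057). Stk40, a kinase-related gene, rose by 0.77 and 1.35, and the centrosomal gene Cep126 by 0.81 and 1.76. Taf7, a subunit of the general factor TFIID, went the other way. It stood at 12.1, 15.4, 9.01, 15.1 and 18.2 CPM in siCtrl, 29.0 to 71.9 with siLmod1 and 14.3 to 30.6 with siSirt1, with 1.72 ± 0.12 and 0.73 ± 0.12 and a difference of -0.99 (interval -1.25 to -0.73). Protein-coding gene models overlap Taf7 on the opposite strand. Styxl1, Tmprss2 and Il21r also differed, each at or under 3.85 CPM in every library.

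**Figure D3:**
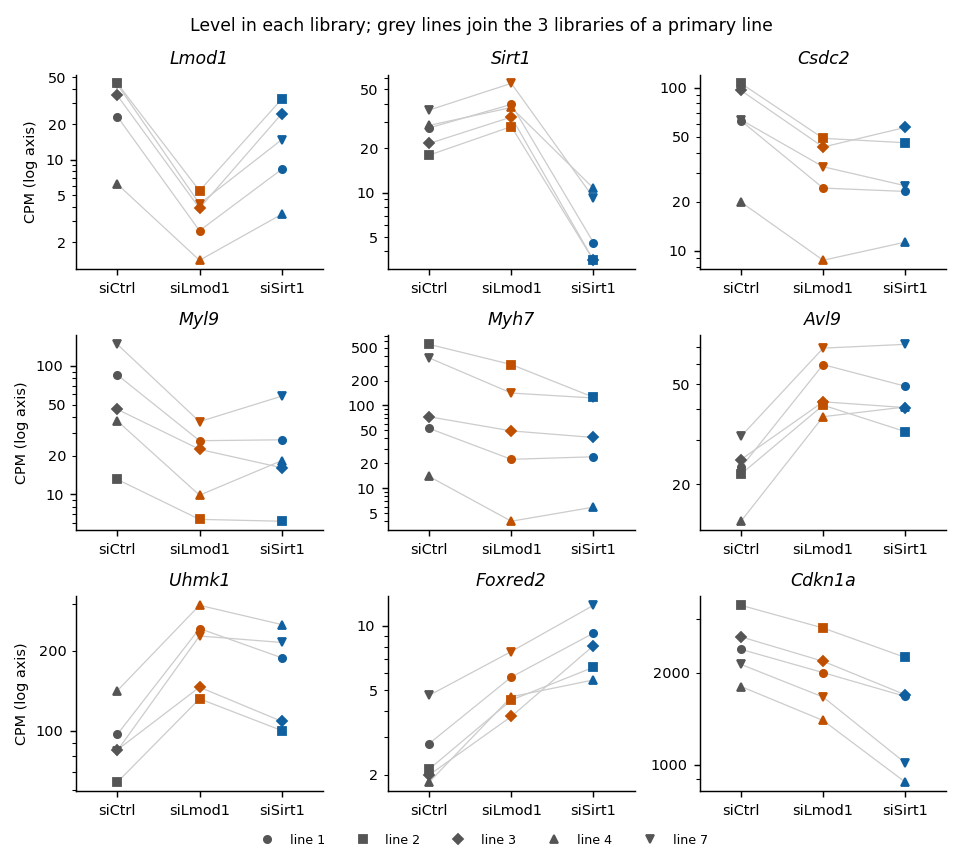
CPM on a log axis in each library of siCtrl, siLmod1 and siSirt1 for 9 genes, with 1 marker shape per primary line and grey lines joining the 3 libraries of a line. Csdc2, Myl9 and Myh7 fall and Avl9 rises in both knockdowns without a called difference. Uhmk1 rises in both, and less in siSirt1 in each line. Foxred2 and Cdkn1a move further in siSirt1, Lmod1 is lowest in siLmod1, and Sirt1 moves in opposite directions.

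Calls in the gene lists below are to be read beside 3.11% higher and 4.7% lower over all genes tested. Actin genes and targets of SRF and MRTF gave calls in 1 direction. Of 33 tested members, 11 fell, Capza1 among them, and none rose, with a median log2 change of -0.33 against -0.0018 over all genes, and -0.27 and -0.31 in siLmod1 and siSirt1. Beside Myl9 and Capza1, the smallest p-values were those of Pdlim7, a PDZ-LIM protein of actin bundles, and of Acta2, smooth muscle actin. Pdlim7 stood at 199, 239, 139, 238 and 205 CPM in siCtrl, against 108 to 180 and 124 to 172 CPM in siLmod1 and siSirt1, an average of -0.44 ± 0.08 (adjusted p = 0.0051). Acta2 fell by 0.49 ± 0.10, with -0.16 in siLmod1 and -0.82 in siSirt1 (adjusted p of the difference 0.0014). The calponin-family gene Tagln fell by 0.77 ± 0.16 in like measure (-0.64 and -0.89), while its paralogue Tagln2 had -1.42 in siLmod1 and 0.14 in siSirt1 (adjusted p of the difference 0.00011). The focal adhesion gene Vcl (-0.48), Fhl2 (-0.60), the integrin gene Itga5 (-0.35), Actg1 (-0.36) and Tpm1 (-0.40) also fell. The knockdowns differed for Actg1, at -0.53 in siLmod1 and -0.18 in siSirt1, and for Tpm1, at -0.11 and -0.69 (adjusted p of the difference 0.028 and 0.0019). Vcl, Fhl2, Itga5, Actg1, Tpm1 and both Tagln genes lie outside the naming rule. With other settings that keep the 2 knockdowns and the block, 4 to 16 members fell, against 1 without the block and 2 with the knockdowns merged.

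Promoters were searched for the CArG box, the element that SRF binds, on both strands from 250 bases before to 50 after each RefSeq start. It was present for 1.61% of 11096 tested genes with a promoter, 3.24% of 555 genes that fell and 1.54% of 390 that rose. In the actin and SRF list it was present for 25.9% of 27, and for 4 of the 10 members that fell and had a promoter. These 4 are shown because each gene fell in the average, though Actg1 by unequal amounts in the knockdowns. Sequences run 5′ to 3′ from RefSeq on GRCm38.p6, with the CArG box in capitals.
Myl9, chr2:156775283-156775332, plus strand: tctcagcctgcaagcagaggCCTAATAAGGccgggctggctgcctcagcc
Actg1, chr11:120348556-120348605, minus strand: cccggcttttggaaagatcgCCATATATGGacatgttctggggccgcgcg
Vcl, chr14:20929151-20929200, plus strand: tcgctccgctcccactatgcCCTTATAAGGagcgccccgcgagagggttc
Fhl2, chr1:43196828-43196877, minus strand: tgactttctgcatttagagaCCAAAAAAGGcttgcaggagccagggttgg
Fhl2, other start, chr1:43163963-43164012, minus strand: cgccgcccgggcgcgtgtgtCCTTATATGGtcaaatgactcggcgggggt
The box of Myl9 begins 161 bases before the start, that of Actg1 90, that of Vcl 227, and those of Fhl2 96 and 31 before its 2 starts. A match is a string of letters and was not tested as a binding site. The E-box CAGCTG, the form preferred by myogenic factors, was present for 23.6% of the genes that fell, 17.9% of those that rose and 18.6% of all.

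Contractile genes fell or did not pass, and several owed the call to siSirt1. Of 51 sarcomere and contractile genes tested, 10 fell and none rose (median -0.33, with -0.14 in siLmod1 and -0.52 in siSirt1), and 46 of 51 were below 0. Over other settings that keep the block and both knockdowns, 2 to 16 of the 51 fell and at most 1 rose. In siSirt1 the medians of lines 1, 2, 3, 4 and 7 were -0.43, -0.20, 0.02, -1.10 and -1.09, largest in size in lines 4 and 7. Besides Myh7, the members named were Tnnc1, slow troponin C, at 676 to 2918 CPM in siCtrl, 506 to 2311 with siLmod1 and 306 to 2118 with siSirt1 (average -0.53 ± 0.11, adjusted p = 0.012), and Mybph, a myosin-binding protein, at -0.74 ± 0.16. Tnnc1 (-0.33 and -0.74) and Mybph (-0.40 and -1.08) fell further in siSirt1 (adjusted p of the difference 0.0335 and 0.0214). Tcap, the titin cap protein, was also called for difference (adjusted p = 1.15e-05), from 18.4 to 87.1 CPM in siCtrl and 17.8 to 76.2 in siLmod1 to 7.57 to 20.1 in siSirt1. Acta1, skeletal actin (-0.21 and -0.87), and Myh4, a fast myosin (0.15 and -1.73), also had called differences, both outside the naming rule. Myl2, the slow regulatory light chain, named after its value was seen, was lower in all 10 libraries at -1.72 ± 0.41 (adjusted p = 0.025), from 0.320 to 4.73 CPM in siCtrl. CArG boxes of these 2 promoters are shown since Acta1 is the skeletal counterpart of the actin genes above.
Acta1, chr8:123894819-123894868, minus strand: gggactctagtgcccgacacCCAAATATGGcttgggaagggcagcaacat
Myh4, chr11:67237688-67237737, plus strand: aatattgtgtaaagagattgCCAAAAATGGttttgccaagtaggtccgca
The embryonic myosin gene Myh3 had a log2 change of -0.39 ± 0.14 that missed the threshold (adjusted p = 0.12). The list of excitation-contraction coupling covers calcium stores and channels. In it, 3 of 30 fell and none rose (median -0.20), while 15 were called lower in siSirt1 against siCtrl and 1 in siLmod1 against siCtrl. Its siSirt1 medians were -0.46, -0.20, -0.20, -0.69 and -0.91 in lines 1, 2, 3, 4 and 7. The 3 that fell in the average were Casq1, calsequestrin (-0.75 and -2.15), Srl, sarcalumenin (-0.18 and -2.20), and the channel subunit gene Cacna2d1 (-0.21 and -1.36). For each of them the difference between the knockdowns was called.

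Membrane and matrix genes also fell in part. Of 21 caveola and membrane repair genes, 8 fell and none rose (median -0.34, with -0.39 and -0.21), and 3 to 10 fell over the same settings. Anxa6, an annexin of membrane repair, stood at 544, 647, 584, 869 and 646 CPM in siCtrl, at 350 to 533 in siLmod1 and at 418 to 563 in siSirt1. The siCtrl library of line 1 alone lay within the knockdown range, and within lines all 10 knockdown libraries were lower (average -0.53 ± 0.07, adjusted p = 0.0013). Pacsin3, which bends caveolar membranes, fell by 0.74 ± 0.13 (-0.64 and -0.83), the muscle caveolin gene Cav3 by 0.53 ± 0.10 (-0.39 and -0.67) and Ehd1 by 0.39 ± 0.08 (-0.39 and -0.38). The other 4 were Cavin1, Cavin4, Anxa2 and Trim72, named after their values were seen.

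Of 41 extracellular matrix genes, 9 fell and none rose (median -0.40, with -0.69 in siLmod1 and -0.19 in siSirt1), and 6 to 17 fell over the same settings. In siSirt1 the medians of lines 1, 2, 3, 4 and 7 were -0.53, -0.44, -0.36, 0.06 and 0.12, above 0 in lines 4 and 7. The knockdowns differed for 17 of the 41. Hspg2, perlecan of basement membranes, stood at 1494, 1564, 1949, 1212 and 1731 CPM in siCtrl, 728 to 1439 with siLmod1 and 900 to 1382 with siSirt1. All lines fell in both, by 0.46 ± 0.07 on average (adjusted p = 0.0031) and a difference of -0.07 (interval -0.25 to 0.12). Nid2, nidogen 2, fell by 0.71 ± 0.11, more in siLmod1 (-0.90) than in siSirt1 (-0.52), without a called difference (adjusted p = 0.054). Mfap4 fell by 1.66 ± 0.13 on average, with -0.39 in siLmod1 and -2.92 in siSirt1. Sparc (-0.54) and Lox (-0.96) fell, and Ogn, at 0.43 and -1.87, was an average of opposite values; these 3 lie outside the naming rule. Of 25 dystrophin complex and integrin genes, 6 fell and 1 rose (median -0.19), with 3 to 8 lower over those settings. The integrin alpha V gene Itgav fell by 0.85 ± 0.12 (-1.09 and -0.60), Itga7 by 0.59 ± 0.11 (-0.31 and -0.87) and Itgb1 by 0.38 ± 0.07 (-0.25 and -0.51), each with a called difference. Itga6 fell by 0.35, and outside the naming rule the dystrophin relative Utrn fell by 0.32 and the syntrophin gene Sntb2 rose by 0.32.

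Fusion genes fell in part. Of 26 tested, 8 fell and none rose (median -0.19), with 5 to 10 lower over other settings that keep the block and both knockdowns. Mymk, myomaker, the membrane protein of myoblast fusion, stood at 1242, 1821, 1341, 369 and 1278 CPM in siCtrl, at 896, 1301, 1077, 315 and 1085 CPM in siLmod1 and at 807, 1520, 1093, 227 and 727 CPM in siSirt1. All 10 knockdown libraries were below the siCtrl library of their line, and the average of -0.44 ± 0.09 passed (adjusted p = 0.013), though not without the siCtrl library of line 1 or of line 7. Its partner Mymx, myomixer, was at 0.13 ± 0.19 (adjusted p = 0.73). Cd81, a tetraspanin, fell by 0.41 ± 0.06 and the adhesion gene Jam2 by 0.79 ± 0.13, both further in siSirt1. Rac1, a small GTPase of actin remodelling, had -1.17 in siLmod1 and 0.11 in siSirt1 (adjusted p of the difference 1.2e-05).

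Few myogenic factors passed the test. Of 22 myogenic regulators, 2 rose and 2 fell (median -0.15). Myod1 stood at 611 to 971 CPM in siCtrl, 649 to 977 with siLmod1 and 714 to 954 with siSirt1 and was at 0.09 ± 0.08 (adjusted p = 0.56). Myog, myogenin, was at -0.40 ± 0.14 with 9 of 10 libraries below their siCtrl and did not pass (adjusted p = 0.11), nor did Myf5 (-0.14 ± 0.16). The 2 that rose were Eya1, a coactivator of homeobox factors in muscle, by 0.64 ± 0.09 in like measure (0.65 and 0.62), and Id3, an inhibitor of basic helix-loop-helix factors, by 0.71 ± 0.11 (0.37 and 1.05, adjusted p of the difference 0.0024). Eya1 stood at 14.8, 14.0, 11.5, 32.1 and 20.6 CPM in siCtrl, against 21.1 to 46.0 and 18.1 to 51.4 CPM in the knockdowns, higher in all lines. Mef2a (-0.38 ± 0.09) and Smarcd3, a chromatin remodelling subunit (-0.28 ± 0.08), fell in all 10 libraries. Of 17 satellite cell and myoblast markers, 2 rose and 4 fell (median -0.19). The growth factor receptor gene Fgfr1 (0.42) and the syndecan gene Sdc4 (0.50, outside the naming rule) rose, and Itga7, Ncam1 (-0.42), Spry1 and, outside the rule, the cadherin gene Cdh15 (-0.32) fell. Pax7 was at -0.78 in siLmod1 and 0.36 in siSirt1, an average of -0.21 that did not pass, and Spry1, a receptor signalling inhibitor of quiescent satellite cells, was called at -0.10 and -1.52.

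Several targets of p53 fell in the average. Of 25 tested, 8 fell and 1 rose (median -0.20), and 3 of the 8 also differed between the knockdowns. Pmaip1, the pro-apoptotic NOXA gene, stood at 167, 140, 152, 40.1 and 51.9 CPM in siCtrl, at 100.3, 92.4, 81.9, 24.6 and 28.6 CPM in siLmod1 and at 114, 61.9, 89.3, 31.5 and 27.3 CPM in siSirt1. It was lower in every line of both knockdowns, with log2 changes over the lines of -0.75 and -0.74, and the interval of the difference was -0.24 to 0.26. Cdkn1a, the cell cycle inhibitor p21 of arrested myoblasts, stood at 2389, 3330, 2626, 1806 and 2133 CPM in siCtrl, against 1398 to 2806 and 878 to 2248 CPM in the knockdowns. Its average was -0.53 ± 0.08 (adjusted p = 0.0026), with -0.30 in siLmod1 (adjusted p = 0.069) and -0.76 in siSirt1. Zmat3 fell by 0.76 ± 0.12, with -1.05 and -0.47 (adjusted p of the difference 0.011), and the death receptor gene Eda2r by 0.56 ± 0.09, with -0.20 and -0.93 (adjusted p of the difference 0.00042). Outside the naming rule, Ccng1 (-0.54 and -0.43), Aen (-0.50 and -0.43), Phlda3 (-0.41 and -0.34) and Tnfrsf10b (-0.51 and -0.43) fell and Gadd45a rose (0.47 and 0.38), each without a called difference.

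Cell cycle genes gave few calls. All 40 mitosis and G2/M genes were below 0 with a median of -0.54, and 2 passed the test. An unadjusted p under 0.05 was reached by 22 of them, and DESeq2 called 9 and limma-voom 3. Medians by line were -1.11, -0.34, 0.02, -0.06 and -0.84 in lines 1, 2, 3, 4 and 7, near 0 in lines 3 and 4. Ccnb2, cyclin B2, stood at 8.64, 4.84, 2.38, 11.5 and 10.4 CPM in siCtrl, 1.67 to 8.67 with siLmod1 and 1.76 to 5.37 with siSirt1 (average -0.83 ± 0.22, adjusted p = 0.04). Spc25, a kinetochore gene, fell by 0.73 ± 0.16. Mki67 was at -0.51 ± 0.28 (adjusted p = 0.31) and Ccnd1, at -1.49 and 1.20, did not pass in the average. Of 40 DNA replication genes none was called by edgeR or limma-voom and 1 by DESeq2, 4 had an unadjusted p under 0.05, and the median was -0.12. The element TTTGAA of cell cycle promoters was present, on either strand, for 78.8% of 33 mitosis genes and 14.1% of all genes, and the match 167 bases before the start is shown for Ccnb2 as a member that fell. Ccnb2 has a second match that begins 4 bases past its start (window chr9:70421525-70421570), and Spc25 has its match past the start. Neither of these is shown, and which of the Ccnb2 matches acts as the element, if either, was not tested.
Ccnb2, chr9:70421696-70421741, minus strand: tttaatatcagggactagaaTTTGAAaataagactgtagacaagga

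Some stress genes rose, more of them in siSirt1 than in siLmod1. Of 35 unfolded protein and integrated stress response genes, 5 rose and 1 fell (median 0.19, with 0.06 in siLmod1 and 0.36 in siSirt1). Against siCtrl, 17 were called higher in siSirt1 and 1 in siLmod1, and over other settings that keep the block and both knockdowns 1 to 11 rose in the average. Dnajb9, an ER co-chaperone, stood at 39.6, 25.9, 31.1, 53.9 and 66.7 CPM in siCtrl, at 56.4, 57.8, 60.9, 68.5 and 109 CPM in siLmod1 and at 60.4, 39.7, 43.1, 97.0 and 112 CPM in siSirt1. It was higher in every line (0.71 ± 0.11, adjusted p = 0.0038), with 0.75 and 0.67. Herpud1, a gene of ER protein disposal like Foxred2, rose by 0.38 ± 0.09, the stress factor gene Atf3 by 0.55 ± 0.15 and Cebpg by 0.33 ± 0.09, the last with 0.06 and 0.60. Sel1l (0.27) rose and Pdia6 (-0.97 and 0.17) fell, both outside the naming rule. The element TGATGNAAN of C/EBP and ATF factors was present for 26.7% of 30 promoters of this list and 2.62% of all, but for 2.05% of the genes that rose.

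Among 36 metabolic regulators linked to SIRT1, 3 rose and 3 fell (median 0.06). Cpt1a, the entry enzyme of mitochondrial fatty acid oxidation, stood at 95.3, 50.2, 77.4, 58.9 and 84.1 CPM in siCtrl, against 71.2 to 135 and 68.0 to 185 CPM in siLmod1 and siSirt1, higher in all lines (0.68 ± 0.13, adjusted p = 0.0084). Ppargc1a, the coactivator PGC-1 alpha, rose by 0.53 ± 0.10 (0.74 and 0.33), and Pparg, at 0.440 to 2.77 CPM in siCtrl, by 1.26 ± 0.30. Foxo3 fell by 0.39 ± 0.07 in equal measure (-0.40 and -0.39), and Foxo1 and Nnmt, outside the naming rule, fell by 0.29 and 0.68. Of 38 autophagy and lysosome genes, 4 rose and 1 fell (median 0.06). Those that rose were Tfe3, a lysosomal transcription factor (0.37 ± 0.08), Hexa (0.43 ± 0.08), the proton pump subunit gene Atp6v1h (0.31 ± 0.06) and Atg13 (0.25, outside the rule), all higher in 10 of 10 libraries, while Ctns was called at -1.30 and 0.14.

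Signalling lists gave calls in both directions, and their counts were not tested against the shares over all genes. Of 28 Wnt pathway genes, 2 rose and 3 fell (median -0.04, above 0 with library totals). Rspo3, a secreted Wnt agonist, stood at 4.05, 1.39, 2.52, 4.12 and 1.05 CPM in siCtrl, against 2.39 to 6.03 and 2.71 to 11.1 CPM in the knockdowns (1.05 ± 0.16, adjusted p = 0.0025). The receptor gene Fzd1 rose by 0.62 ± 0.12 (0.62 and 0.63), the coreceptor gene Lrp5 fell by 0.54 ± 0.08 (-0.70 and -0.39) and the ligand gene Wnt9a by 0.74 ± 0.15 (-0.42 and -1.05), with Fzd2 at -0.50 outside the rule. Of 29 TGF-beta and BMP genes, 3 rose and 1 fell (median -0.07, above 0 with library totals): Bmp2 by 1.43 ± 0.36, Smad6 by 0.58 ± 0.15 and the activin receptor gene Acvr2a by 0.37 ± 0.08 rose, and the ligand gene Tgfb3 fell by 0.70 ± 0.13. Of 22 Notch genes, the ligand gene Dll1 rose by 0.57 ± 0.10 (0.46 and 0.69) and Numbl fell by 0.32 ± 0.07 (median -0.10).

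Genes of nucleic acid sensing and RNA interference gave few calls. Of 25 interferon and nucleic acid sensing genes, 2 rose and none fell (median 0.18). Cxcl10, an interferon-induced chemokine, stood at 0.190, 0.0367, 3.11, 0 and 0.0679 CPM in siCtrl, at 0.588, 1.18, 6.61, 0.141 and 0.616 CPM in siLmod1 and at 0.433, 0.205, 11.5, 0.558 and 0.532 CPM in siSirt1. Outside line 3 it reached 1.18 CPM at most, against a floor of 3 counts at 0.0880 to 0.133 CPM over the libraries, and the change of 2.17 ± 0.53 (adjusted p = 0.027) rests on few reads. Rsad2, an antiviral interferon target, stood at 0.770 to 8.78 CPM in siCtrl and rose by 0.89 ± 0.25 (adjusted p = 0.047). Of 15 genes of the RNA interference machinery, the Dicer partner gene Tarbp2 fell by 0.42 ± 0.10 (-0.55 and -0.29) and none rose (median -0.02). With library totals 3 of these 15 rose, none fell and the median lay above 0. Of 17 NF-kB targets, Nfkbia rose by 0.34 and Tnfaip2 fell by 0.50 (median 0.03), against 2 higher and none lower with library totals.

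The remaining lists gave few or no calls. Of 27 heat shock and chaperone genes, 1 rose and 3 fell (median -0.12), and 12 were called lower in siSirt1 against siCtrl. Hspa1a rose by 0.74 ± 0.19, and Hspb7 (-0.36 and -1.62), Hsf2 (0.08 and -0.94) and Dnaja1 fell. Of 32 glycolysis and hypoxia genes, Car9 rose by 0.86 ± 0.18 and Ddit4 (-0.70 ± 0.14) and Egln3 (0.18 and -1.48) fell (median -0.14). Of 31 proteasome genes Psmb6, Psmd2 and Psmd3 fell, by 0.23, 0.30 and 0.20 (median -0.08, above 0 with library totals). The proteasome medians were 0.12 in siLmod1 and -0.26 in siSirt1, 18 members were called lower in siSirt1 against siCtrl, and 26 of the 31 differed between the knockdowns. Of 30 lipid synthesis genes 2 fell, Scd1 by 0.71 and Scd2 by 0.26 (median -0.06, above 0 with library totals). None of 45 nuclear-encoded oxidative phosphorylation genes was called in the average by edgeR, DESeq2 or limma-voom, and 1 had an unadjusted p under 0.05. Medians of 0.19 in siLmod1 and -0.18 in siSirt1 averaged to a list median of 0.01, and 37 of the 45 differed between the knockdowns. None of 40 cytosolic ribosomal protein genes (median -0.07, above 0 with library totals), 20 aminoacyl-tRNA synthetase genes (0.01) or 13 mitochondrially encoded genes (0.03) was called by edgeR with TMM scaling, while 4, 5 and 0 had an unadjusted p under 0.05. DESeq2 called 3, 3 and 0 of them, and limma-voom 0, 1 and 0, and with library totals 2 aminoacyl-tRNA synthetase genes rose in edgeR. Of the lists for other cells, 1 of 8 fibroblast markers fell (Fap, median -0.05, above 0 with library totals), 1 of 8 Schwann and glial markers (Ncam1, median -0.17), 1 of 7 immune markers (Laptm5, at most 1.81 CPM, median -0.26) and none of 6 endothelial markers by edgeR, DESeq2 or limma-voom (median -0.14, 1 with an unadjusted p under 0.05).

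**Figure D4:**
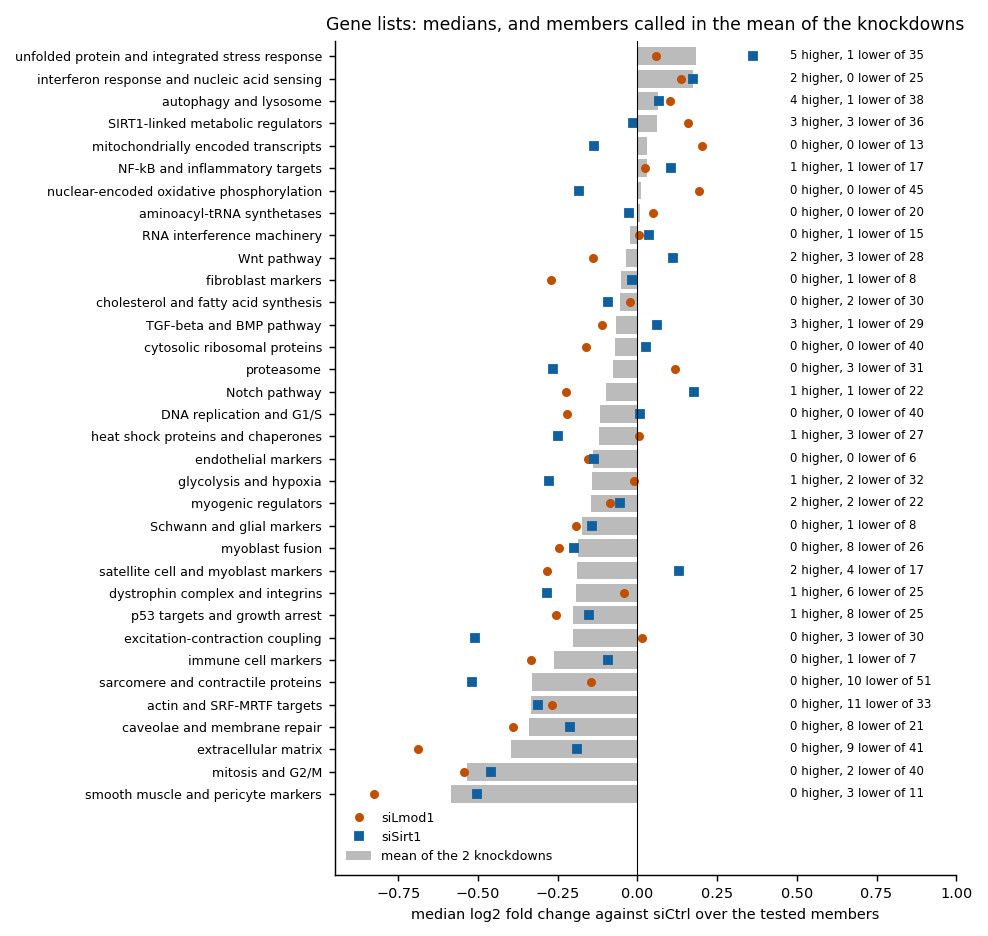
Median log2 fold change against siCtrl over the tested members of each of the 34 gene lists, with a bar for the mean of the knockdowns, an orange circle for siLmod1 and a blue square for siSirt1, and the members called in the mean at the right. The caveola, actin and mitosis medians lie below 0 in both knockdowns, while the oxidative phosphorylation and Notch medians of siLmod1 and siSirt1 lie on opposite sides of 0.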

How the data were processed

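RNA-seq of 15 libraries of mouse primary myoblasts (poly(A) RNA, TruSeq v2, 150 bp) was analysed from 3 deposited tables of raw counts per gene and from the TPM that the authors deposited beside them. DESeq2 and the build mm10 are named per the submitters' processing notes, and the aligner, counter and annotation were not given in the sources used here. The tables were joined by Ensembl identifier (49315 identifiers, 48970 with a symbol in the deposited tables, 0.032% of counts without one). Coordinates are from GENCODE M21 (mm10, 49056 identifiers) and promoters from RefSeq (GRCm38.p6, 11096 tested genes matched). The library kit does not mark strand.

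Counts were tested in edgeR 4.0.16 (R 4.3.3) by quasi-likelihood with group and replicate number as terms, filterByExpr and TMM, at a Benjamini-Hochberg adjusted p under 0.05, on 8 residual degrees of freedom. The contrast was the mean of siLmod1 and siSirt1 minus siCtrl. Numbers paired the libraries: deviations of same-numbered libraries correlated at 0.323 to 0.926 (15 pairs, median 0.795), against a median of -0.147 over 60 other pairs. For siSirt1 of line 1 the values were 0.323 and 0.357 with its own number, against 0.288 and 0.229 with number 3. On simulated data, 94% of genes changed by 1 and 58% of those changed by 0.5 on the log2 scale were recovered for this contrast, with 6 false calls among 15461 genes. The simulation gave both knockdowns and all lines the same change, with no departure of the siCtrl libraries. In the data 26.8% of genes differed between the knockdowns, so the simulation does not give the error rate of the real contrast.

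Named genes were the 12 highest and 12 lowest called genes of at least 5 CPM with all 10 knockdown libraries on 1 side of their siCtrl, ranked by the smaller of the 2 knockdowns' changes and without predicted models. Added were 8 genes unequal between the knockdowns, the members of each of 34 lists with the lowest p (at most 4 per list), and 12 fixed genes. 1 gene that the rule named is not reported here. The members and lists were chosen with earlier results of these data known. Permutations used log2(CPM + 0.5). The 29 other settings changed the block, scaling, filter, tool (DESeq2 1.42.0, limma 3.58.1) or libraries.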

Additional observations from a re-analysis of the deposited data

Results flagged for a closer look

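Among 141 groups of 5 values, 15 held a library far from the other 4 by Dixon's criterion (0.71 for 5 values), where chance gives about 7.05 at 1 in 20. Most of them were libraries of line 4. In siCtrl the library of line 4 held 728 CPM of smooth muscle and pericyte markers, 109 CPM of endothelial markers, 108 CPM of Stard10 and 311 CPM of Myf5. In siLmod1 that of line 4 held 656 CPM of fibroblast markers, 95.9 CPM of endothelial markers, 44.2 CPM of Stard10 and 223 CPM of Myf5. In siSirt1 that of line 4 held 34.3 CPM of Stard10 and 439 CPM of Myog. The other values were 0.264 CPM of Styxl1 in siCtrl of line 3, 2.26 CPM of Tmprss2 and 3.10 CPM of Il21r in siLmod1 of line 2, 27.0 CPM of Adamtsl2 in siSirt1 of line 2, and 236 CPM of Ccnd1 in siSirt1 of line 7.

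Of 39 genes followed through the settings, 15 differed between the knockdowns by edgeR's quasi-likelihood test with Benjamini-Hochberg adjustment, against 26.8% of all genes tested. Among the 39 are 8 genes chosen as unequal and both targeted genes, so the count describes the choice. The difference, siSirt1 minus siLmod1 on the log2 scale, was positive for Foxred2 (0.66), Cep126 (0.95), Stk40 (0.58), Angptl4 (1.33), Styxl1 (1.48), Pax7 (1.14), Ccnd1 (2.69) and Lmod1 (2.08). It was negative for Taf7 (-0.99), Adamtsl2 (-1.12), Snai3 (-0.95), Tmprss2 (-1.67), Il21r (-2.14), Cdkn1a (-0.46) and Sirt1 (-2.70). Lmod1 and Sirt1 are the genes targeted.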

How the results depend on the processing

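Pairing by replicate number moved the counts most. Without the replicate block, 13 genes were called in the average in place of 1227, 38 in siLmod1 in place of 1427, 150 in siSirt1 in place of 2530 and 554 between the knockdowns in place of 4210. Members of gene lists called fell from 120 of 880 to 2. With the knockdowns merged the average gave 173 genes and 24 list members, and with DESeq2 2098 and 192, with 2266 genes in siLmod1. Leaving out 1 library or line gave 495 to 1447 genes in the average, 532 to 1875 in siLmod1, 1357 to 2543 in siSirt1, 2909 to 4175 between the knockdowns and 55 to 139 list members. The cause was not tested. Other settings gave 1237 (relative log expression), 1279 (upper quartile), 1428 (limma-voom), 1304 (no filter, 378 higher and 926 lower) and 1409 (5 CPM or more) in the average. Library totals moved the median of all genes to 0.13 in siSirt1 and the share called higher to 73.0% there, 57.0% in siLmod1 and 63.3% between the knockdowns, from 46.8%, 42.0% and 50.5%.

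Of the 24 genes named as highest and lowest, Stk40 kept its call in all 29 settings. Best1 and Unc13c lost it in 18, Maf in 4 and Shisal1 in 3. Of the other genes followed, Styxl1 lost its call in 11 of 27 settings that tested it, Il21r in 10 of 28, Tmprss2 in 8 of 28 and Mymk in 5 of 29. With library totals more genes were called higher than lower in the average (965 against 480). None of the 1227 called genes changed sign in the other settings that tested it. Of the genes followed and not called, Myf5 ran from -0.41 to 0.01 and Ccnd1 from -0.52 to 0.21, and the medians of 12 of 34 lists lay on both sides of 0. Leaving out each line from the permutations was added after seeing the data and kept the direction. No immune marker reached a mean of 5 CPM, so that list has no value there. Counting error limits genes near the floor of 3 counts, 0.0880 to 0.133 CPM.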
